A study of Mus musculus with 19 samples.

Results

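The 44 genes described here make up the glutathione and NRF2 detoxification system: 2 regulators, 4 genes of glutathione supply, 5 of glutathione recycling and the peroxidases, 5 of the thioredoxin system, 6 of NADPH supply, 14 glutathione transferases and related microsomal enzymes, and 8 other detoxification enzymes and pumps. They were chosen by symbol, and all 44 were matched to an Ensembl identifier in a table of 34807 genes. All 44 also passed the filter on low values, which kept 32031 genes. The list was drawn up with tumour-against-skin results of these libraries known, so the values of its genes against normal skin are a description and carry no test. Where a gene is called higher or lower than skin, that only says which side of an adjusted p of 0.05 it fell in the fit over all genes. Tests are given for comparisons among tumours, which the rule of the choice does not name, although the same tumour libraries entered both. Earlier results of these libraries were known when the genes were chosen. Whether comparisons among tumours played a part in the choice is not given in the sources used here.

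The libraries were bulk RNA sequencing of whole mouse skin tumours, labelled squamous cell carcinoma, driven by BRAFV600E, an activated kinase of the MAPK pathway, and of normal skin. In the tumour groups, a tamoxifen-inducible Cre recombinase switched the oncogene on under 1 of 3 promoters. Ivl:BRAFV600E tumours (6 libraries) used the involucrin promoter, active above the basal layer and in part of it, with tamoxifen applied to shaved back skin. K5:BRAFV600E (5 libraries) and K14:BRAFV600E tumours (4 libraries) used keratin promoters of the basal layer, with 4-hydroxytamoxifen. These 3 groups are called Ivl, K5 and K14 below, and the name gives the promoter that drove Cre, not the cell types a tumour held. Normal skin (4 libraries) was labelled wild type, and whether those mice received tamoxifen is not given in the sources used here. All mice were labelled female and kept on a C57BL/6J background, and the labels put induction between 7 and 20 weeks of age, while the study's methods give either sex and a narrower range of ages for its mice. Nothing states that each library came from its own animal, so standard errors (SE) and p-values measure the spread between these libraries.

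NRF2, encoded by Nfe2l2, is a transcription factor that KEAP1 holds in the cytoplasm and passes on for degradation. Oxidants and electrophiles modify KEAP1, NRF2 then accumulates and, paired with a small MAF protein, binds antioxidant response elements near genes that make and use glutathione, reduce oxidised proteins and conjugate toxic compounds. The epidermis, exposed to light and chemicals, is a tissue in which this pathway is well known, and since NRF2 is controlled largely through protein stability, its mRNA alone does not report its activity.

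Library totals ranged from 45715309 to 72609771 counts. Levels are given as CPM, a gene's counts relative to the total of its library, with libraries scaled by edgeR's TMM method, and differences as log2 fold changes from edgeR's quasi-likelihood fit over all genes. The TMM factors were 1.43 to 1.66 in skin and 0.806 to 1.15 in tumours. Relative to them the median gene lay below skin, by -0.46 (log2) in Ivl, -0.64 in K5 and -0.56 in K14 tumours, and DESeq2's size factors moved these medians to -0.59, -0.75 and -0.67. A set of 4 libraries stood apart, namely Ivl tumours 1, 2 and 3 and K5 tumour 1. For this check, CPM were taken by library total, without the TMM scaling. Averaged over these 4, that value differed by less than 0.1 (log2) from the average over all remaining 15 libraries, whether tumour or skin. This held for 96.6% of 13954 genes above 2 CPM. Of the 44 genes described here it held for 43, Gstm3 being the exception. The deposited counts had been adjusted for a sequencing batch, which the labels do not name. The study describes a batch of 4 and a batch of 15 libraries, without listing them in the sources used here. The 15 libraries include all skin and the set of 4 none, so the adjustment may have moved levels in the set of 4. How far it did was not tested. Counts, the fold changes of the genes shown by library and the differences between tumour groups are therefore also given within the other 15 libraries, that is 3 Ivl, 4 K5, 4 K14 and 4 skin.

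Marker genes of several cell types moved with the groups. The summed level of 8 keratinocyte markers was 6751 to 13000.0 CPM in skin and 42050.0 to 107100.0 CPM in tumours, with 7 of 8 past the threshold in Ivl and 8 of 8 in K5 and in K14. For 8 neutrophil markers the sums were 11.9 to 40.3 CPM in skin, where Ly6g was at 0 in every library, and 107 to 6606 CPM in tumours, with 5 of 8 higher in each origin. Skeletal muscle markers summed to 2195 to 6346 CPM in skin, 4.49 to 3752 CPM in Ivl and 5.78 to 436 CPM in K5 and K14 tumours, and 0, 7 and 4 of 8 were lower in Ivl, K5 and K14. In bulk tissue, fewer cells of a type and less RNA per cell cannot be told apart, and the part of these shifts in the differences from skin was not tested. The ratio of median keratinocyte sums to skin was 7.53 in Ivl, 6.61 in K5 and 8.64 in K14 tumours. In the same order it was 0.272, 0.965 and 1.115 for fibroblast and 0.426, 0.344 and 0.259 for sebaceous gland markers. It was 0.439, 0.698 and 0.383 for macrophage and monocyte, 0.786, 1.65 and 1.84 for endothelial and 1.81, 0.87 and 1.05 for adipocyte markers. The adipocyte sum and its single genes differ, since only 1 of the 8 genes had a log2 fold change above 0 in each origin. Their median log2 fold change from skin was -1.88 in Ivl, -2.96 in K5 and -4.14 in K14 tumours. Past the threshold, 0, 0 and 1 of the 8 were lower, and 3, 3 and 4 within the 15 libraries. The shares of all genes past the threshold stand with the counts against skin below.

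The core of the antioxidant response element, written TGACNNNGC and searched on both strands, was looked for in RefSeq promoters (GRCm38.p6, from 250 bases before the transcript start to 50 after). RefSeq promoters were matched for 37 of the 44 genes, and the core lay in those of 12 (32.4%), against 12.4% of all 32851 promoters of this length and 14.0% of 27025 genes. The 7 genes without an entry were Hmox1, Gclc, Gsta4, Aldh3a1, Gsr, Prdx6 and Abcc1. The 5 sites below are shown 5′ to 3′ on the strand of the gene, with the core in capitals, because they sit before genes on which the comparisons below turn, or before genes that separate higher from level members of the pathway.
Gclm, chr3:122245403-122245451, + strand: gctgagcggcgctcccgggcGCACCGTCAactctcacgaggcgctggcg
Gsta3, chr1:21240444-21240492, + strand: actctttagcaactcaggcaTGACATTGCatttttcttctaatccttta
Nfe2l2, chr2:75704875-75704913, - strand: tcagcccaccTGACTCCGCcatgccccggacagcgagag
Prdx1, chr4:116685446-116685494, + strand: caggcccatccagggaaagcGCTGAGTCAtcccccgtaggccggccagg
Txnrd1, chr10:82859094-82859142, + strand: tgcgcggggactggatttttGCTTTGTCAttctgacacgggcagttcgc

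The core in Gclm began 134 bases, in Gsta3 121 bases, in Nfe2l2 240 bases, in Prdx1 133 bases and in Txnrd1 92 bases before the RefSeq start. In the GENCODE annotation of the same build, the Gclm, Gsta3 and Prdx1 stretches lay outside any gene, the Nfe2l2 stretch lay in an exon of the opposite-strand gene E030042O20Rik, and the Txnrd1 stretch lay in an intron of Txnrd1, before a downstream start. The Gsta3 and Nfe2l2 cores read on the strand of the gene and the other three on the opposite strand. As a description, the median log2 fold change from skin was 1.18 over the 12 with it and 1.38 over the 25 without in Ivl, 0.12 and 1.07 in K5, and 0.18 and 0.83 in K14 tumours. A match of letters is a description and not a bound site.

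**Figure D1:**
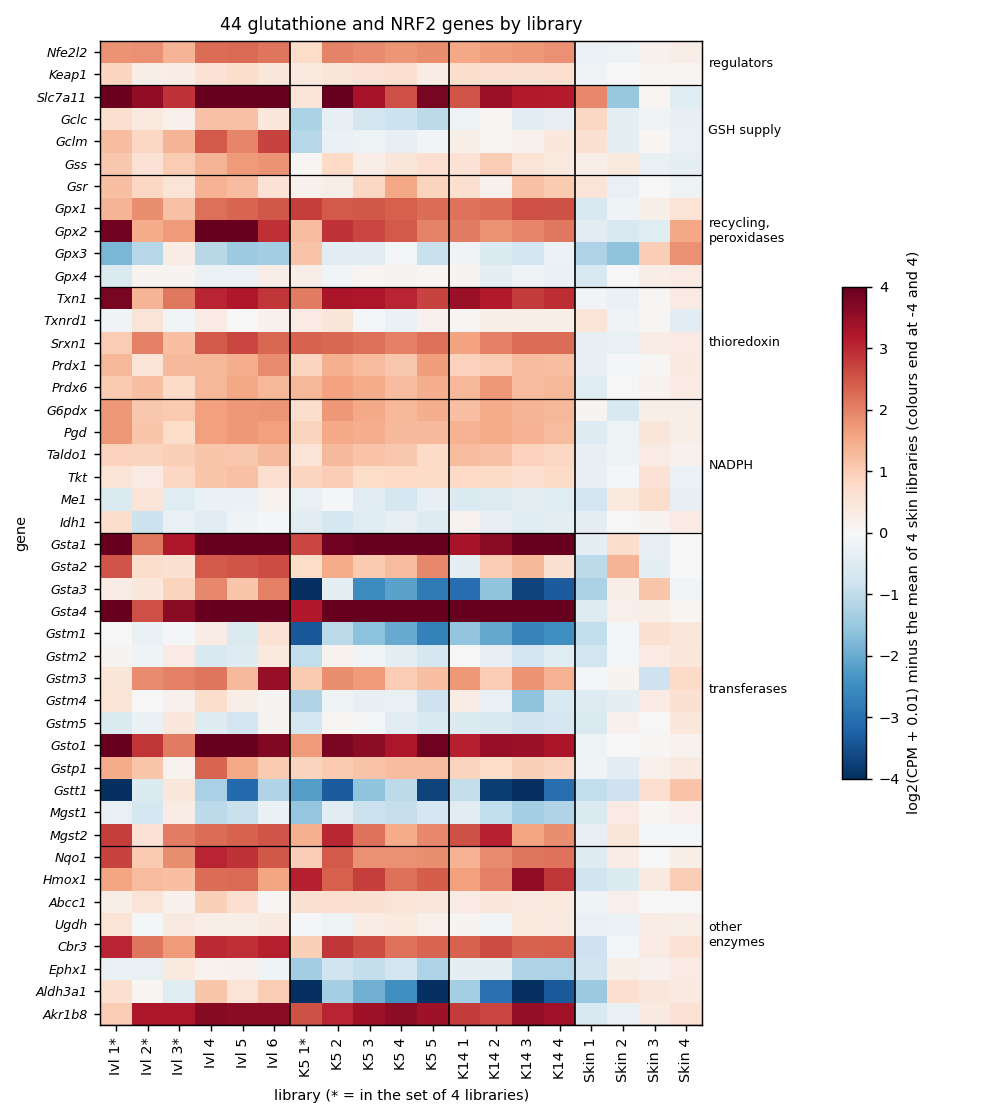
Each row is a gene, grouped by role, and each column a library; colour gives log2(CPM + 0.01) minus the mean of the 4 skin libraries, with colours ending at -4 and 4. Slc7a11, Txn1, Gsta1, Gsta4 and Gsto1 are high across the tumours, Gsta3, Gstm1 and Aldh3a1 are low in most K5 and K14 but not in Ivl tumours. Stars mark the set of 4 libraries.

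Against normal skin, 28 of the 44 genes were higher and 1 lower at an adjusted p under 0.05 in Ivl tumours, where 34.7% of all genes passed and 20.4% were higher. In K5 tumours 25 were higher and 7 lower, where 55.7% of all genes passed, 22.2% higher. In K14 tumours 24 were higher and 7 lower, where 46.5% of all genes passed, 20.6% higher. Since these contrasts chose the list, nothing is read from the counts. The median log2 fold change of the 44 genes was 1.24 in Ivl, 0.88 in K5 and 0.74 in K14 tumours. Of all genes past the threshold in Ivl tumours, 58.7% were higher, a share that was 47.1% with DESeq2's size factors and 40.9% within the 15 libraries. Within the 15 libraries, 29 of the 44 genes were higher and 2 lower in Ivl, where 54.9% of all genes passed, 27 and 8 in K5 (61.2%), and 26 and 7 in K14 tumours (54.5%). No library of the tumour group overlapped the skin libraries for 22 genes that were higher in Ivl (background 13.2%), 22 in K5 (19.3%) and 24 in K14 (19.7%). In the lower direction there were 0 such genes in Ivl (9.01%), 2 in K5 (29.8%), namely Gstm1 and Gstt1, and 2 in K14 (30.8%), namely Gsta3 and Gstm1. In either direction, 22.2% of all genes did not overlap in Ivl, 49.1% in K5 and 50.5% in K14. Within the 15 libraries the counts of genes without overlap were 28 higher and 1 lower in Ivl (background in either direction 57.8%), and 24 and 2 in both K5 (56.0%) and K14 (50.5%).

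**Figure D2:**
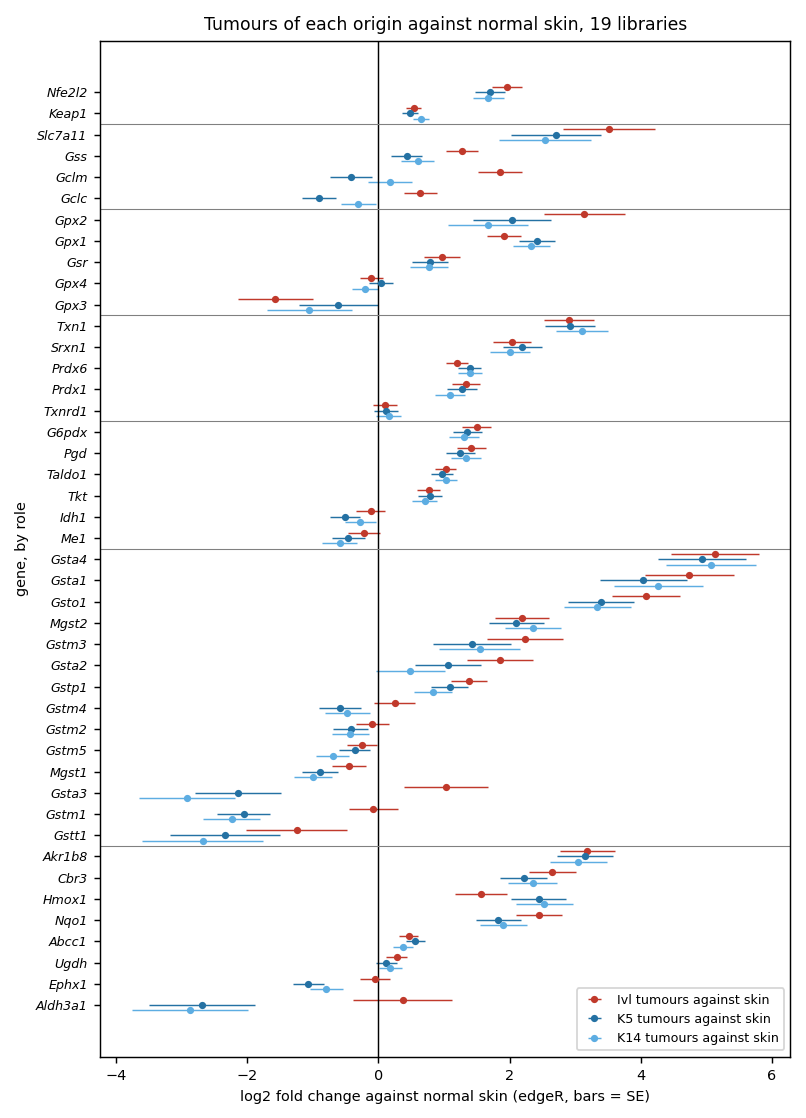
Points are log2 fold changes of each gene against normal skin in Ivl (6 libraries), K5 (5) and K14 (4) tumours, with SE as bars, by role. Gsta4, Gsta1 and Gsto1 lie farthest to the right in all 3 origins, while the points of Gclm, Gclc, Gsta3, Gstm1, Ephx1 and Aldh3a1 for Ivl lie to the right of those for K5 and K14.

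Both regulators were higher in tumours of every origin. Nfe2l2 stood at 74.1, 76.0, 98.5 and 105 CPM in skin and at 222 to 420.3 CPM, with a median of 349, in Ivl tumours. It stood at 146, 349, 327, 294 and 319 CPM in K5 and 254, 277, 288 and 309.7 CPM in K14 tumours. No tumour overlapped skin, and K5 tumour 1, the lowest tumour, is in the set of 4 libraries. The log2 fold change from skin was 1.95 ± 0.23 (SE) in Ivl, 1.70 ± 0.23 in K5 and 1.68 ± 0.24 in K14. Keap1, whose protein holds NRF2 back, gave 31.3, 34.5, 36.3 and 36.1 CPM in skin and 41.6 to 62.0 CPM, with a median of 49.3, in Ivl tumours. Its readings were 45.7, 47.8, 51.4, 54.8 and 42.6 CPM in K5 and 56.2, 54.4, 52.7 and 53.6 CPM in K14 tumours. These groups also stood clear of skin, with log2 fold changes of 0.54 ± 0.12, 0.49 ± 0.12 and 0.65 ± 0.13. Another gene on the opposite strand, Gm16754, covers 10.9% of the Keap1 exon bases, and the sources used here do not say whether counting used the strand.

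The genes that supply glutathione parted by tumour origin. Slc7a11, the transporter subunit that brings in cystine, was high in all 3, while the enzymes that turn cysteine into glutathione were highest in Ivl tumours. For Slc7a11 the skin libraries read 49.8, 4.58, 14.1 and 9.48 CPM and Ivl tumours read 98.8 to 343 CPM, with a median of 230.5. The K5 tumours read 18.7, 224, 130.1, 78.1 and 185 CPM and the K14 tumours 76.1, 140.5, 119 and 116 CPM. Skin library 1 was far above the other skin libraries and overlapped K5 tumour 1 alone among the tumours. The log2 fold changes from skin were 3.51 ± 0.70 in Ivl, 2.71 ± 0.69 in K5 and 2.54 ± 0.70 in K14.

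Gclc encodes the catalytic and Gclm the modifier subunit of glutamate-cysteine ligase, the rate-limiting enzyme of glutathione synthesis. Gclm was at 64.8, 32.5, 44.9 and 34.7 CPM in skin and 74.8 to 276 CPM, with a median of 137, in Ivl tumours. It was at 19.2, 35.5, 37.2, 33.9 and 39.2 CPM in K5 and 50.4, 43.9, 47.8 and 57.5 CPM in K14 tumours. Every Ivl tumour lay above every other library, and the K5 and K14 tumours lay within or below the skin range. Its log2 fold change from skin was 1.85 ± 0.33 in Ivl, -0.42 ± 0.32 in K5 and 0.17 ± 0.34 in K14. Gclc was at 111, 49.0, 57.7 and 50.6 CPM in skin and 72.0 to 144 CPM, with a median of 91.8, in Ivl tumours. Its K5 readings were 26.3, 50.3, 37.7, 34.5 and 30.4 CPM and its K14 readings 55.1, 64.5, 47.1 and 50.2 CPM. Here too the Ivl tumours stood clear of K5 and K14, but skin library 1 reached into the Ivl range. The log2 fold changes from skin were 0.63 ± 0.25 in Ivl, -0.90 ± 0.26 in K5 and -0.31 ± 0.27 in K14.

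Gss, glutathione synthetase, carries out the last step. In skin it gave 17.8, 19.4, 11.9 and 11.2 CPM and in Ivl tumours 21.8 to 50.5 CPM, with a median of 34.1. In K5 tumours it gave 15.2, 25.2, 17.5, 20.4 and 23.5 CPM and in K14 tumours 21.7, 29.2, 21.2 and 19.2 CPM. All Ivl tumours were above skin, whereas K5 and K14 tumours overlapped skin, and 3 of them lay above Ivl tumour 2, the lowest Ivl tumour. Its log2 fold change from skin was 1.27 ± 0.24 in Ivl, 0.43 ± 0.24 in K5 and 0.60 ± 0.25 in K14. Acss2 on the opposite strand covers 6.68% of its exon bases.

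**Figure D3:**
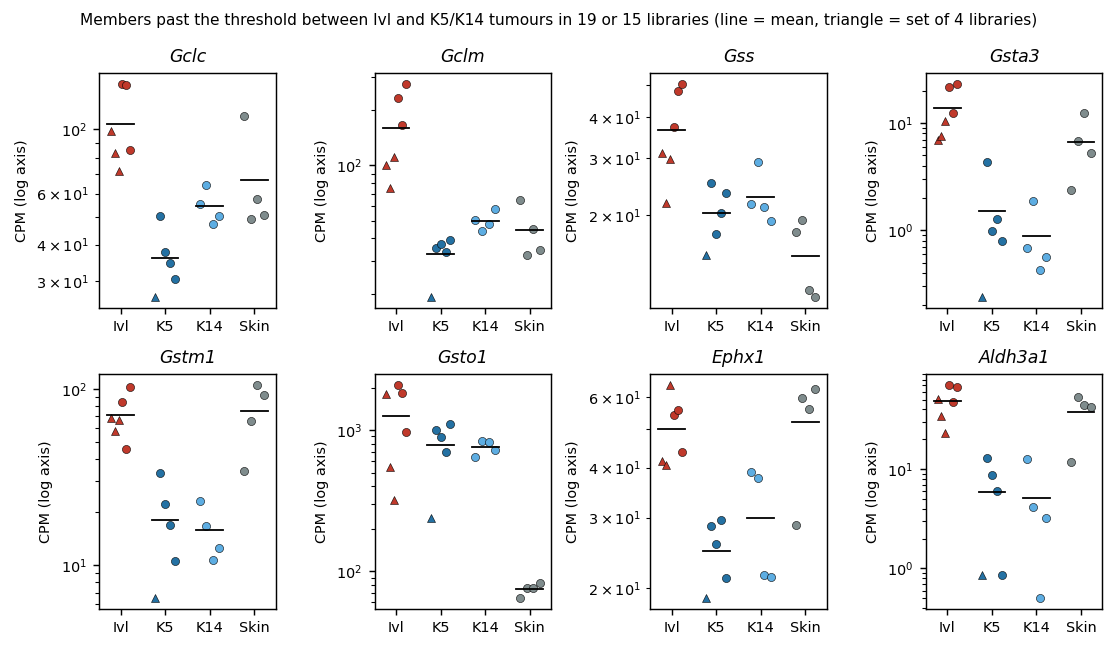
Each panel shows the CPM of a gene (log axis) in every library of Ivl, K5 and K14 tumours and skin, with the group mean as a line and triangles for the set of 4 libraries. For Gclc, Gclm, Gsta3, Gstm1, Ephx1 and Aldh3a1 all 6 Ivl tumours lie above all 9 K5 and K14 tumours, while for Gss and Gsto1 the groups overlap.

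Among the peroxidases, which use glutathione to reduce peroxides, Gpx1 and Gpx2 were higher than in skin in all origins, the secreted Gpx3 was lower in Ivl tumours, and the log2 fold changes of Gpx4, which acts on lipid peroxides in membranes, lay between -0.21 and 0.04. Gpx1 gave 95.6, 130.1, 172 and 213 CPM in skin and 328 to 814 CPM, with a median of 601, in Ivl tumours. The values were 1002, 806, 809, 769 and 690.0 CPM in K5 and 665, 683, 865 and 860.3 CPM in K14 tumours. All tumours stood above skin, with log2 fold changes of 1.91 ± 0.27, 2.42 ± 0.28 and 2.33 ± 0.28 in Ivl, K5 and K14. Gpx2, the form best known from epithelia, read 7.99, 7.32, 7.96 and 32.1 CPM in skin and 30.7 to 213 CPM, with a median of 123, in Ivl tumours. The K5 readings were 25.9, 82.2, 70.6, 60.9 and 44.1 CPM and the K14 readings 47.0, 38.5, 43.3 and 47.9 CPM. Skin library 4 was several times the other skin libraries and overlapped Ivl tumour 2 and K5 tumour 1, the lowest of their groups. Its log2 fold changes were 3.14 ± 0.62, 2.03 ± 0.60 and 1.67 ± 0.61.

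Gpx3 was at 55.6, 43.2, 261 and 465 CPM in skin and 37.1 to 162 CPM, with a median of 54.1, in Ivl tumours. It was at 286, 95.7, 96.9, 125 and 70.8 CPM in K5 and 119.7, 89.7, 77.6 and 111 CPM in K14 tumours. The skin libraries themselves spanned a wider range than any tumour group, and every tumour fell inside that range except Ivl tumour 1, which was below it. The log2 fold changes were -1.57 ± 0.57, -0.61 ± 0.60 and -1.05 ± 0.64. Gsr, which regenerates reduced glutathione, had log2 fold changes of 0.97 ± 0.27, 0.79 ± 0.28 and 0.77 ± 0.29. For Gpx4 these were -0.11 ± 0.18, 0.04 ± 0.18 and -0.21 ± 0.19, with 25.1% of its 101-base stretches also present in other genes, mainly Gpx4-ps2.

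Of the thioredoxin genes, Txn1, Srxn1, Prdx1 and Prdx6 stood above skin without overlap in every origin. Txn1, the small protein that reduces disulfides, stood at 64.9, 59.1, 72.6 and 88.0 CPM in skin and 181 to 988 CPM, with a median of 541, in Ivl tumours. It read 299, 684, 669, 585 and 458 CPM in K5 and 776, 639.9, 492 and 542 CPM in K14 tumours. The lowest tumour, Ivl 2, was still above the highest skin library, and the log2 fold changes were 2.91 ± 0.38, 2.92 ± 0.39 and 3.11 ± 0.40. Srxn1, which repairs over-oxidised peroxiredoxins, read 22.4, 22.8, 34.8 and 35.6 CPM in skin and 57.2 to 181 CPM, with a median of 126, in Ivl tumours. The K5 tumours held 146, 140.0, 131, 114 and 129.9 CPM and the K14 tumours 85.5, 115, 132 and 132 CPM. Skin and tumours did not overlap, with log2 fold changes of 2.04 ± 0.28, 2.19 ± 0.29 and 2.00 ± 0.30. Prdx6, a peroxiredoxin that can use glutathione, gave 54.7, 76.5, 84.9 and 95.0 CPM in skin and 129.9 to 222 CPM, with a median of 184, in Ivl tumours. It gave 191, 232, 213, 178 and 209 CPM in K5 and 191, 256, 181 and 192 CPM in K14 tumours. The groups stood clear of skin again, with log2 fold changes of 1.2 ± 0.17, 1.4 ± 0.17 and 1.4 ± 0.18. Prdx1 had log2 fold changes of 1.33 ± 0.22, 1.27 ± 0.22 and 1.09 ± 0.23. Txnrd1, the reductase that recharges thioredoxin and a widely used NRF2 target, overlapped skin in every origin, with log2 fold changes of 0.10 ± 0.18, 0.12 ± 0.19 and 0.16 ± 0.20.

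NADPH, the reducing power behind both systems, is made by the pentose phosphate pathway and by Me1 and Idh1. G6pdx, Pgd and Taldo1 stood above skin without overlap in every origin and Tkt in K5 and K14 tumours, while Me1 and Idh1 overlapped skin. G6pdx, its first enzyme, was at 122, 73.8, 132 and 130.3 CPM in skin and 229 to 384 CPM, with a median of 359, in Ivl tumours. In K5 tumours G6pdx read 181, 374, 321, 282 and 307 CPM and in K14 tumours 258, 312, 285 and 280.3 CPM. Log2 fold changes were 1.5 ± 0.22, 1.35 ± 0.22 and 1.31 ± 0.23, all tumours being above skin, and Ikbkg on the other strand covers 13.6% of its exon bases. Pgd, which makes the next NADPH, was at 61.8, 78.1, 126 and 105 CPM in skin and 147 to 298 CPM, with a median of 276, in Ivl tumours. It was at 164, 254, 247, 219.6 and 217 CPM in K5 and at 234, 248, 236 and 216 CPM in K14 tumours. No tumour overlapped skin, with log2 fold changes of 1.42 ± 0.22, 1.25 ± 0.22 and 1.33 ± 0.23. Taldo1, of the non-oxidative branch, gave 65.0, 70.8, 102 and 90.9 CPM in skin and 148 to 199 CPM, with a median of 165, in Ivl tumours. Readings were 119, 198, 177, 169.7 and 137 CPM in K5 and 192, 180.3, 154 and 144 CPM in K14 tumours. The log2 fold changes, 1.03 ± 0.16, 0.97 ± 0.17 and 1.03 ± 0.17, were close to each other, and skin did not overlap the tumours. Tkt, also of that branch, had log2 fold changes of 0.76 ± 0.18, 0.78 ± 0.18 and 0.71 ± 0.19. For Me1 they were -0.22 ± 0.24, -0.46 ± 0.25 and -0.59 ± 0.27, and for Idh1 -0.12 ± 0.22, -0.50 ± 0.23 and -0.27 ± 0.24.

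The glutathione transferases, which join glutathione to reactive compounds, held the largest differences from skin in the list and, in Gsta3, the largest between origins. Per kilobase of exon, so that genes can be compared, Gsta4 was the highest of the 44 genes in every tumour group, at a mean of 1058 CPM per kb in Ivl, 925 in K5 and 1015 in K14, and held rank 13 in skin, at 30.2. Gsto1 held rank 2 in Ivl, at 621 CPM per kb, and rank 4 in K5 and K14, at 389 and 373. In skin, Gpx3 and Gpx1 led, at 114 and 106 CPM per kb, and the spread of Gpx3 covers that order. Summed over the 44 genes, the level was 1098 CPM per kb in skin, 4133 in Ivl, 3775 in K5 and 3840 in K14 tumours, and the top 3 genes made up 27.0%, 52.9%, 53.1% and 55.5% of it.

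**Figure D4:**
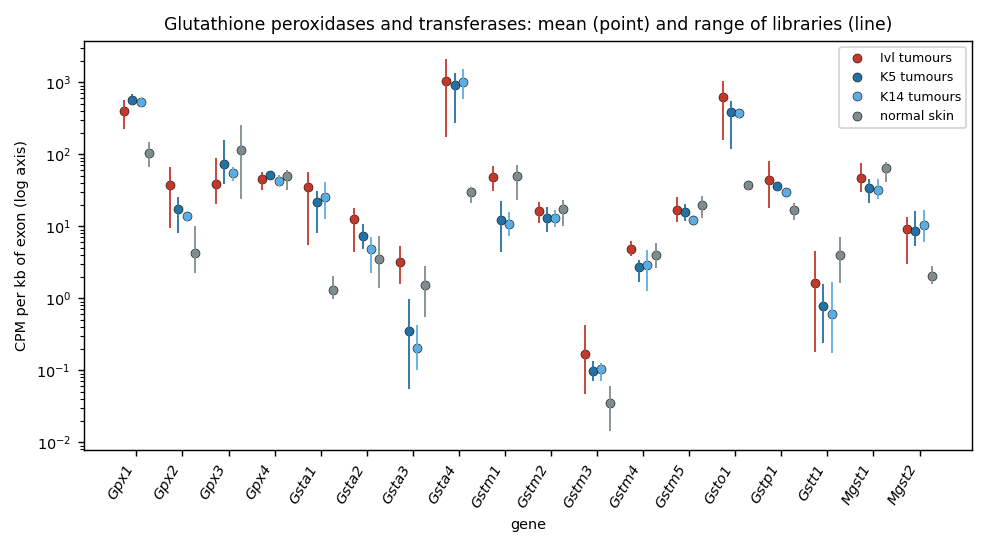
Points are group means and lines the range over libraries, in CPM per kb of exon on a log axis, for 4 glutathione peroxidases and 14 transferases. Gsta4 and Gsto1 in tumours lie far above skin without overlap, and Gsta3 and Gstm1 in K5 and K14 tumours lie below Ivl tumours.

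Gsta4, which conjugates the lipid peroxidation product 4-hydroxynonenal, read 26.4, 42.7, 44.6 and 39.2 CPM in skin and 223 to 2640.0 CPM, with a median of 1501, in Ivl tumours. It read 344, 989, 1524, 1699 and 1299 CPM in K5 and 839, 754, 1907 and 1642 CPM in K14 tumours. Every tumour was several times the highest skin library, and the lowest tumours, Ivl 2, K5 1 and Ivl 3, are all in the set of 4. Against skin the log2 fold changes came to 5.13 ± 0.67, 4.94 ± 0.67 and 5.07 ± 0.68. Gsta1, an alpha-class transferase, read 0.923, 1.95, 0.937 and 1.19 CPM in skin and 5.17 to 55.0 CPM, with a median of 38.4, in Ivl tumours. The K5 tumours read 7.66, 17.9, 20.3, 27.0 and 30.0 CPM and the K14 tumours 11.9, 14.5, 39.9 and 30.0 CPM. Its log2 fold changes were 4.74 ± 0.68, 4.04 ± 0.66 and 4.27 ± 0.68, with no overlap with skin. Of the 101-base stretches of Gsta1, 80.4% also occur in Gm3776, Gsta2 or Gm10639, so how counts were divided among these genes is uncertain.

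Gsto1, an omega-class transferase that reduces rather than conjugates, stood at 64.5, 75.5, 76.3 and 82.5 CPM in skin and 317 to 2090.0 CPM, with a median of 1384, in Ivl tumours. It stood at 239.7, 1006, 894, 696 and 1095 CPM in K5 and at 644, 835, 818 and 722 CPM in K14 tumours. The skin libraries lay close together and below every tumour. In log2 the differences from skin were 4.07 ± 0.52, 3.4 ± 0.51 and 3.34 ± 0.52. Gsta3 and Gstm1 were instead lower than skin in K5 and K14 tumours. Gsta3, another alpha-class enzyme, read 2.37, 6.86, 12.3 and 5.30 CPM in skin and 6.95 to 23.1 CPM, with a median of 11.5, in Ivl tumours. Its readings were 0.238, 4.30, 0.993, 1.28 and 0.799 CPM in K5 and 0.684, 1.87, 0.431 and 0.564 CPM in K14 tumours. Every K14 tumour was below every skin library, K5 tumour 2 reached into the skin range, and the Ivl tumours overlapped skin and stood above all K5 and K14 tumours. Its log2 fold changes from skin came to 1.03 ± 0.64, -2.14 ± 0.66 and -2.92 ± 0.74. Gstm1, the main mu-class enzyme, gave 34.5, 66.0, 106 and 92.4 CPM in skin and 45.5 to 102 CPM, with a median of 67.7, in Ivl tumours. The K5 libraries gave 6.51, 33.5, 22.2, 17.0 and 10.6 CPM and the K14 libraries 23.2, 16.7, 10.8 and 12.6 CPM. Every K5 and K14 tumour was below every skin library and every Ivl tumour, and the log2 fold changes were -0.08 ± 0.38, -2.06 ± 0.40 and -2.24 ± 0.44.

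The other transferases are given by their log2 fold changes in Ivl, K5 and K14. Mgst2, a microsomal enzyme, stood at 2.19 ± 0.41, 2.1 ± 0.42 and 2.36 ± 0.43, while Mgst1 stood at -0.45 ± 0.26, -0.89 ± 0.27 and -0.99 ± 0.29. Gstp1, 24.95% of whose stretches are shared, mainly with Gstp2, stood at 1.38 ± 0.28, 1.09 ± 0.28 and 0.83 ± 0.29. Gsta2, 28.2% of whose stretches are shared with Gsta1, Gm10639 or Gm3776, stood at 1.85 ± 0.51, 1.07 ± 0.50 and 0.49 ± 0.52. Gstt1, a theta-class enzyme, stood at -1.25 ± 0.78, -2.34 ± 0.84 and -2.68 ± 0.92. The mu-class genes Gstm2, Gstm4 and Gstm5 ranged from -0.70 (Gstm5 in K14) to 0.25 (Gstm4 in Ivl), and Gstm3 stayed under 1 CPM in every library, its highest value being 0.559 CPM in Ivl tumour 6.

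Of the other detoxification enzymes, Nqo1, Hmox1, Cbr3 and Akr1b8 stood above skin without overlap in every origin. Akr1b8, an aldo-keto reductase that reduces aldehydes, was at 7.58, 9.41, 14.8 and 17.2 CPM in skin and 23.4 to 144 CPM, with a median of 125, in Ivl tumours. It was at 68.0, 95.7, 123, 139 and 122 CPM in K5 and 80.2, 73.8, 132 and 120.3 CPM in K14 tumours. Ivl tumour 1 was the lowest tumour by far, all tumours exceeded skin, and the log2 fold changes were 3.18 ± 0.42, 3.16 ± 0.43 and 3.05 ± 0.43. Cbr3, a carbonyl reductase, read 8.64, 14.4, 19.4 and 22.8 CPM in skin and 49.4 to 133 CPM, with a median of 119, in Ivl tumours. The K5 tumours held 29.6, 110.2, 93.1, 68.7 and 76.2 CPM and the K14 tumours 78.7, 94.1, 78.8 and 80.7 CPM. For this gene the log2 fold changes were 2.65 ± 0.36, 2.21 ± 0.36 and 2.35 ± 0.37, again without overlap with skin. Nqo1, the quinone reductase most often used to follow NRF2, had log2 fold changes of 2.45 ± 0.35, 1.83 ± 0.35 and 1.90 ± 0.36.

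Hmox1, which breaks down haem, read 24.8, 29.7, 56.3 and 86.2 CPM in skin and 101 to 208 CPM, with a median of 129, in Ivl tumours. The readings were 378, 230.4, 295, 200.3 and 234 CPM in K5 and 136, 178, 509 and 314 CPM in K14 tumours. All tumours were above skin, and the Ivl range overlapped those of K5 and K14, with log2 fold changes from skin of 1.57 ± 0.39, 2.44 ± 0.42 and 2.53 ± 0.43. Ephx1, the microsomal epoxide hydrolase, read 28.7, 59.8, 56.2 and 62.8 CPM in skin and 40.6 to 64.4 CPM, with a median of 49.0, in Ivl tumours. It read 18.9, 28.6, 25.7, 29.5 and 21.2 CPM in K5 and 39.0, 37.8, 21.6 and 21.3 CPM in K14 tumours. Ivl tumours lay inside or just above the skin range and above all K5 and K14 tumours, and the log2 fold changes were -0.05 ± 0.23, -1.07 ± 0.24 and -0.79 ± 0.25. Aldh3a1, an aldehyde dehydrogenase abundant in epithelia such as the cornea, gave 11.8, 53.0, 44.9 and 41.9 CPM in skin and 23.4 to 70.8 CPM, with a median of 49.4, in Ivl tumours. The K5 tumours gave 0.858, 13.1, 8.71, 5.97 and 0.864 CPM and the K14 tumours 12.8, 4.12, 0.503 and 3.19 CPM. K5 and K14 tumours spread widely and 2 of them lay above skin library 1, yet all stayed below every Ivl tumour, with log2 fold changes from skin of 0.37 ± 0.76, -2.69 ± 0.81 and -2.88 ± 0.88. The export pump Abcc1 and the enzyme Ugdh, which makes the donor for glucuronidation, had log2 fold changes of 0.12 to 0.56 across the origins.

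The log2 fold changes from skin within the 15 libraries were as follows, in Ivl and then in K5 tumours. K14 tumours, none of which is in the set of 4, are left out here. Nfe2l2 gave 2.20 ± 0.13 and 1.87 ± 0.12, Keap1 0.58 ± 0.10 and 0.51 ± 0.09 and Slc7a11 3.92 ± 0.66 and 2.99 ± 0.61. Gclm gave 2.34 ± 0.22 and -0.28 ± 0.20, Gclc 0.88 ± 0.28 and -0.81 ± 0.26 and Gss 1.59 ± 0.21 and 0.52 ± 0.20. The supply genes thus kept the order of Ivl above K5. Gpx1 gave 2.28 ± 0.21 and 2.33 ± 0.20, Gpx2 3.60 ± 0.51 and 2.22 ± 0.47 and Gpx3 -1.97 ± 0.66 and -1.09 ± 0.58. Txn1 gave 3.02 ± 0.19 and 3.07 ± 0.19, Srxn1 2.46 ± 0.19 and 2.16 ± 0.18 and Prdx6 1.38 ± 0.17 and 1.42 ± 0.16. G6pdx gave 1.68 ± 0.17 and 1.49 ± 0.16, Pgd 1.61 ± 0.18 and 1.34 ± 0.17 and Taldo1 1.15 ± 0.16 and 1.06 ± 0.15. All of these kept their direction. Gsta4 gave 5.36 ± 0.34 and 5.17 ± 0.33, Gsta1 5.10 ± 0.44 and 4.25 ± 0.41 and Gsto1 4.44 ± 0.24 and 3.63 ± 0.23. Gsta3 gave 1.51 ± 0.64 and -1.86 ± 0.62 and Gstm1 0.05 ± 0.43 and -1.84 ± 0.41, where the value of Gstm1 in Ivl changed sign near 0. Akr1b8 gave 3.53 ± 0.27 and 3.29 ± 0.26, Cbr3 2.92 ± 0.25 and 2.42 ± 0.24 and Hmox1 1.87 ± 0.46 and 2.28 ± 0.44. Ephx1 gave -0.02 ± 0.27 and -0.98 ± 0.25 and Aldh3a1 0.71 ± 0.87 and -2.41 ± 0.86. Relative to the 19 libraries, the calls gained were Gclc (higher) and Mgst1 (lower, at -0.74 ± 0.26) in Ivl, Gss and Gsta2 (higher, Gsta2 at 1.19 ± 0.44) and Idh1 (lower, at -0.52 ± 0.16) in K5, and Gss and Abcc1 (higher, at 0.60 ± 0.20 and 0.37 ± 0.15) in K14 tumours.

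The comparison of Ivl with K5 and K14 tumours asked whether tumours started under the involucrin promoter differ from those of the basal-layer promoters, which the study merged. The study reports that Ivl tumours arose later and grew more slowly, with lesions at several body sites. Promoter, latency, growth, form of tamoxifen and possibly site therefore go together, and cannot be told apart in this comparison. At an adjusted p (Benjamini-Hochberg, over all genes) under 0.05 in edgeR's quasi-likelihood test, 7 of the 44 genes were higher in Ivl and 0 lower, where 2.36% of all genes passed, 1.77% higher and 0.593% lower. At an unadjusted p under 0.05 there were 14, where 6754 of all 32031 genes were. DESeq2 called 9, where it called 2161 of all genes. The 7 were Gclm, Gclc and Gss, 3 of the 4 genes of glutathione supply, the transferases Gsta3 and Gstm1, and Ephx1 and Aldh3a1. None of the regulators, peroxidases, thioredoxin or NADPH genes passed. Of the 44 genes, 33 had a log2 fold change above 0 and the median was 0.27, beside 0.11 over all genes. Ivl tumours did not overlap K5 and K14 tumours, being higher, for 6 genes, namely Gclc, Gclm, Gsta3, Gstm1, Ephx1 and Aldh3a1, where 0.312% of all genes did so, and for 0 genes in the lower direction (0.343%).

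Within the 15 libraries, 6 genes were higher and 0 lower, where 0.410% of all genes passed and 0.213% were higher. These 6 were Gclm, Gclc, Gss, Gsta3, Gstm1 and Gsto1. At an unadjusted p under 0.05 there were 19, for which the share of all genes is not given here, so nothing is read from it. Here 38 genes had a log2 fold change above 0 and the median was 0.31, while the median over all genes was 0. Ivl tumours stood wholly above the 8 K5 and K14 tumours for 15 genes, where 2.33% of all genes did so, and wholly below for 1, Gpx3 (2.53%). The 15 were Nfe2l2, Slc7a11, Gclc, Gclm, Gss, Gpx2, Pgd, Gsta2, Gsta3, Gstm1, Nqo1, Cbr3, Ephx1, Aldh3a1 and Akr1b8. Inside the set of 4 libraries, which holds a single K5 library, K5 tumour 1 lay below all 3 Ivl tumours for 20 of the 44 genes, against 19.7% of all genes, and above all 3 for 8, against 22.2%.

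**Figure D5:**
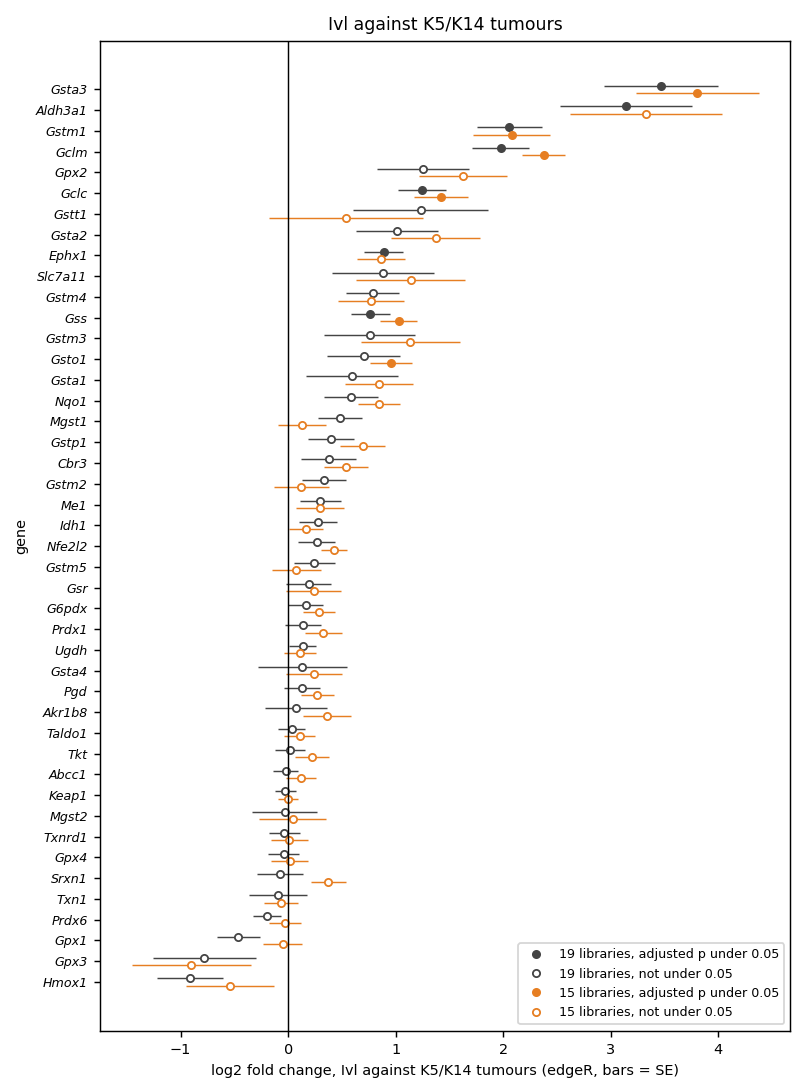
Points are log2 fold changes of Ivl against K5 and K14 tumours with SE as bars, in 19 libraries (grey) and in 15 (orange), filled where the adjusted p was under 0.05. Gsta3, Aldh3a1, Gstm1 and Gclm lie farthest to the right in both, and Aldh3a1 and Ephx1 are filled in 19 libraries only, Gsto1 in 15 only.

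Gclm was higher in Ivl by 1.98 ± 0.27 on the log2 scale (± SE, adjusted p = 0.00171 in edgeR), and by 2.38 ± 0.20 within the 15 libraries (adjusted p = 4.18e-05). For Gsta3 the difference was 3.47 ± 0.53 (adjusted p = 0.00403) and 3.81 ± 0.57 (adjusted p = 0.00875). These were the 2 genes that passed in all 42 alternative fits, with adjusted p up to 0.0314 for Gclm and 0.0359 for Gsta3. Gstm1 differed by 2.06 ± 0.30 (adjusted p = 0.00317) and by 2.08 ± 0.36 within the 15 (adjusted p = 0.0233). It passed in 39 of 42 alternatives, and missed the threshold within the 15 libraries without Ivl tumour 4, Ivl tumour 6 or K14 tumour 4, with adjusted p up to 0.0965. Gclc differed by 1.24 ± 0.22 (adjusted p = 0.0117) and by 1.42 ± 0.25 (adjusted p = 0.0242). It passed in 37 of 42, and 4 of its 5 misses were within the 15 libraries without K5 tumour 3, Ivl tumour 4, Ivl tumour 5 or K14 tumour 4. Its adjusted p reached 0.128 over all alternatives.

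The other calls rested on fewer fits. Gss differed by 0.76 ± 0.18 (adjusted p = 0.036) and by 1.03 ± 0.17 within the 15 (adjusted p = 0.0176). It passed in 30 of 42 alternatives, and over the 19 libraries it missed the threshold without any 1 of 9 libraries, namely K5 tumours 1 to 5, K14 tumours 3 and 4, and Ivl tumours 5 and 6, its adjusted p reaching 0.145 over all alternatives. Ephx1 differed by 0.89 ± 0.19 (adjusted p = 0.0258), but by 0.87 ± 0.22 within the 15 (adjusted p = 0.115), and it also missed without K5 tumour 1 or K5 tumour 3. Aldh3a1 differed by 3.14 ± 0.61 (adjusted p = 0.0216), but by 3.33 ± 0.71 within the 15 (adjusted p = 0.0696). Ephx1 passed in 23 and Aldh3a1 in 25 of 42 alternatives. Both missed with the replicate block and in all 15 fits that left 1 library out within the 15. Over all alternatives the adjusted p reached 0.342 for Ephx1 and 0.192 for Aldh3a1. Gsto1 went from 0.70 ± 0.34 (adjusted p = 0.239) to 0.95 ± 0.19 (adjusted p = 0.045) within the 15, and passed in 7 of 42 alternatives.

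Several genes that were far above skin in every origin did not pass between origins. The difference in log2 between Ivl and the merged K5 and K14 tumours was, for Gsta4, 0.13 ± 0.42 (adjusted p = 0.913; 0.24 ± 0.26 and 0.821 within the 15). For Txn1 it was -0.10 ± 0.27 (adjusted p = 0.893, then -0.07 ± 0.16 and 0.961) and for Akr1b8 0.07 ± 0.29 (adjusted p = 0.942, then 0.36 ± 0.23 and 0.596). For Gpx2 it was 1.25 ± 0.43 (adjusted p = 0.111, then 1.63 ± 0.41 and 0.115), for Slc7a11 0.88 ± 0.47 (adjusted p = 0.296, then 1.14 ± 0.51 and 0.419) and for Nqo1 0.58 ± 0.25 (adjusted p = 0.183, then 0.84 ± 0.19 and 0.0749). Nfe2l2 itself gave 0.26 ± 0.17 (adjusted p = 0.385), and 0.43 ± 0.12 within the 15 (adjusted p = 0.143). The most negative value over the 19 libraries was that of Hmox1, -0.91 ± 0.30 (adjusted p = 0.102), which was -0.54 ± 0.41 within the 15 (adjusted p = 0.682). A p above the threshold does not show that these genes were equal, and the SE give the spread.

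Summed cell type markers also moved between these tumour groups. Fibroblast markers summed to 1540.0 to 10840.0 CPM in Ivl and 3895 to 15170.0 CPM in K5 and K14 tumours, and within the 15 libraries to 1540.0 to 2726 and 3895 to 12710.0 CPM, without overlap. Over the 19 libraries the ratio of medians of Ivl to K5 and K14 was 18.9 for skeletal muscle, 1.92 for adipocyte, 1.36 for sebaceous gland, 1.12 for macrophage and monocyte and 1.1 for keratinocyte markers, and 0.528 for neutrophil, 0.449 for endothelial and 0.281 for fibroblast markers. Within the 15, the same ratios were 0.595, 3.27, 1.16, 1.01 and 1.27, and 0.815, 0.358 and 0.234, so that of skeletal muscle lay on the other side of 1. For adipocyte markers the sum and the single genes differ, since the median log2 fold change of the 8 genes was 1.26 over the 19 libraries and -1.18 within the 15. None of the 8 genes of any of these lists (7 for sebaceous gland) passed the threshold between the tumour groups, in 19 or in 15 libraries. The part of these shifts in the differences between Ivl and the other tumours was not tested.

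Between K5 and K14 tumours, 0 of the 44 genes passed in edgeR, where 0% of all genes did, and 0 within the 15 libraries, where 0.0532% did. DESeq2 also called 0, where it called 174 of all genes. At an unadjusted p under 0.05 there was 1 gene in either set, where 1945 of all genes were over the 19 libraries. The smallest adjusted p was 0.785, for Gclc, whose log2 fold change was -0.60 ± 0.26 (SE), and within the 15 it was 0.473, for Gclm, at -0.45 ± 0.20. The K5 tumours lay wholly above the K14 tumours for Abcc1 (background 2.04%) and wholly below for Gclm (2.40%), where 4.44% of all genes did either. The median log2 fold change of the 44 genes was 0.02.

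The spread among tumours of one origin was uneven across the list. The pooled SD of log2 CPM within tumour groups was largest for Aldh3a1, at 1.48, Gstt1, at 1.42, Gsta1, at 1.09, Gsta4, at 1.08, and Gsta3, at 1.05. It was smallest for Keap1, at 0.171, Tkt, at 0.219, and Abcc1, at 0.22. When the 15 libraries were taken alone, the SD of Gsta4 was 0.476, that of Gsto1 0.358 against 0.885, that of Akr1b8 0.291 against 0.728 and that of Nfe2l2 0.101 against 0.381. Those of Aldh3a1, at 1.57, and Gstt1, at 1.27, stayed wide. In skin the widest genes were Gpx3, at 1.67, and Slc7a11, at 1.44.

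A further 74 genes of the same pathways, listed by role and not by their values, were read beside the 44, although some were known from earlier results. Their calls and adjusted p against skin are therefore a description of the fit and not an independent test. In Ivl tumours 33 were higher than in skin and 6 lower, in K5 35 and 16, and in K14 27 and 10, against the shares of all genes given above. Within the 15 libraries the counts were 34 and 15, 39 and 20, and 30 and 18. Their median log2 fold changes were 0.28, 0.45 and 0.30. Of the 10 genes of NRF2 control, 4, 7 and 5 were higher and 1 lower in each origin. Of 9 genes of NADPH and iron, 6, 7 and 5 were higher and 0 lower. Of 15 further transferases and efflux pumps, 4, 3 and 3 were higher and 2, 5 and 3 lower. Of 19 peroxidases and redoxins, 10, 11 and 8 were higher and 0, 3 and 3 lower. Of 8 genes of glutathione supply and turnover, 4, 3 and 3 were higher and 2, 3 and 1 lower, and of 13 other detoxification enzymes 5, 4 and 3 were higher and 1, 4 and 2 lower.

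Glrx, the glutaredoxin that removes glutathione from proteins, was higher by 3.79 ± 0.54 (adjusted p = 4.41e-05) in Ivl, 4.10 ± 0.56 (adjusted p = 1.71e-05) in K5 and 3.90 ± 0.56 (adjusted p = 4.9e-05) in K14 tumours (log2, ± SE, edgeR). Ggct, which breaks down gamma-glutamyl peptides, was higher by 3.51 ± 0.57 (adjusted p = 0.00014) in Ivl, 5.60 ± 0.65 (adjusted p = 5.14e-06) in K5 and 4.87 ± 0.63 (adjusted p = 2.64e-05) in K14. Maff, a small MAF partner of NRF2, was higher by 2.26 ± 0.35 (adjusted p = 8.4e-05) in Ivl, 2.78 ± 0.37 (adjusted p = 1.27e-05) in K5 and 2.49 ± 0.37 (adjusted p = 6.47e-05) in K14. All 3 were thus called in every origin, as was Prdx5, a mitochondrial and peroxisomal peroxiredoxin. Prdx5 was higher by 2.06 ± 0.25 (adjusted p = 2.98e-05) in Ivl, 2.89 ± 0.27 (adjusted p = 1.8e-06) in K5 and 2.55 ± 0.27 (adjusted p = 1.37e-05) in K14.

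Among the genes that were lower, Ggt5, of the gamma-glutamyl transferase family, had log2 fold changes of -1.58 ± 0.56 (adjusted p = 0.0364) in Ivl, -1.50 ± 0.59 (adjusted p = 0.0383) in K5 and -1.82 ± 0.64 (adjusted p = 0.0285) in K14 tumours (edgeR). For Ephx2, the soluble epoxide hydrolase, they were -1.22 ± 0.43 (adjusted p = 0.0362) in Ivl, -1.55 ± 0.46 (adjusted p = 0.00925) in K5 and -1.64 ± 0.49 (adjusted p = 0.0133) in K14. Both were called lower in every origin. Anpep, an aminopeptidase, was called in Ivl, at -1.38 ± 0.45 (adjusted p = 0.0264), and gave -0.90 ± 0.48 (adjusted p = 0.113) in K5 and -1.16 ± 0.51 (adjusted p = 0.0698) in K14. Ggt1 was called in K5, at -5.14 ± 1.48 (adjusted p = 0.00842), with -1.54 ± 1.21 (adjusted p = 0.297) in Ivl tumours beside -2.84 ± 1.44 (adjusted p = 0.11) in K14. Abcc2, an efflux pump, was called in K5, at -2.17 ± 0.91 (adjusted p = 0.0499), with -2.01 ± 0.84 (adjusted p = 0.0691) in Ivl tumours beside -1.76 ± 0.96 (adjusted p = 0.132) in K14. Within the 15 libraries, Anpep and Abcc2 were called lower in every origin and Ggt1 in K5 only. There Anpep gave -1.62 ± 0.40 in Ivl, -1.46 ± 0.36 in K5 and -1.16 ± 0.36 in K14 tumours. Abcc2 gave -3.25 ± 0.84, -2.91 ± 0.74 and -1.76 ± 0.67 in the same order. Whether these genes differ between origins is not shown by such calls. Aldh1a1, which oxidises retinal and other aldehydes, gave -3.62 ± 1.22 (adjusted p = 0.0195) in K5 and -4.03 ± 1.36 (adjusted p = 0.0244) in K14. In Ivl tumours Aldh1a1 gave -1.74 ± 1.08 (adjusted p = 0.195) over 19 libraries and -3.88 ± 1.23 (adjusted p = 0.0184) within the 15.

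Between Ivl and the K5 and K14 tumours, 2 of the 74 genes passed, where 2.36% of all genes did, so nothing is read from the count. Cat, catalase, was higher in Ivl by 0.72 ± 0.19 (edgeR adjusted p = 0.0485), and Ggct was lower, at -1.81 ± 0.44 (adjusted p = 0.0389). Within the 15 libraries neither passed, at 0.41 ± 0.20 (adjusted p = 0.472) for Cat and -1.23 ± 0.54 (adjusted p = 0.409) for Ggct. There 0 of the 74 genes passed, where 0.410% of all genes did. No gene of the 74 kept Ivl apart from K5 and K14 tumours without overlap over the 19 libraries, where 0.656% of all genes did. Between K5 and K14 tumours 0 passed in edgeR, and DESeq2 called 1, where it called 174 of all genes.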

How the data were processed

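Whole-tissue RNA of 15 tumours and 4 normal skins was sequenced as poly(A) libraries. Per the labels and the study's methods, the authors checked reads with FastQC 0.11.8, trimmed them with Trim Galore, aligned them to GRCm38 with HISAT2 2.1.0, counted genes with featureCounts (Subread 1.6.3) and adjusted the counts for batch with ComBat-seq. The deposited values are therefore estimated counts, all whole numbers, and rounding changed none. Plain counts had been assumed when the tests were set. A gene was tested if any 1 library held 5 counts or more (32031 of 34807 genes). CPM were scaled by TMM, and fold changes came from edgeR 4.0.16 (quasi-likelihood, robust, R 4.3.3) with Benjamini-Hochberg adjustment over all genes and a threshold of 0.05. K5 and K14 tumours were merged for the comparison with Ivl. The fitting steps were tested on simulated data. Alternatives were DESeq2 1.42.0, its size factors, other filters on low counts, the set of 4 libraries as a covariate, a replicate block, each library left out and the 15 libraries without the set of 4. DESeq2 and leaving out each library within the 15 were added after the data were seen.

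The 44 genes and all lists were chosen with earlier results of these data known. Values in every library were given for the 3 genes of each role (2 regulators) with the largest absolute log2 fold change averaged over the 3 contrasts with skin, at a mean of at least 1 CPM, and for any gene past the threshold between tumour groups. Of the 74 other pathway genes, the 3 with the largest change in each direction among those past the threshold were named per comparison. The Ivl values of Aldh1a1, and those of Anpep, Ggt1 and Abcc2 within the 15 libraries, were added after they were seen. Among 37 pairs of replicates, the smallest chi-square per degree of freedom was 25.9, so none was a repeated library. Whether each library came from its own animal is not given in the sources used here.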

Additional observations from a re-analysis of the deposited data

Results flagged for a closer look

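In 13 of 176 groups of 4 to 6 libraries (7.39%), 1 library lay far from the others by Dixon's criterion, where chance gives about 1 in 20. Libraries of the set of 4 gave 5 of these. K5 tumour 1 was the lowest of 5 for Nfe2l2, at 146.0 CPM beside 293.9 for the nearest, and for Gclm, at 19.2 beside 33.9, and the highest for Gpx3, at 286 beside 125. Ivl tumour 3 was the highest of 6 for Gpx3, at 162 CPM beside 60.5, and Ivl tumour 1 the lowest for Akr1b8, at 23.4 beside 109. Skin library 1 was the highest of 4 for Gclc, at 111 CPM beside 57.7, and skin library 4 for Gpx2, at 32.1 beside 7.99. In K14 tumours, library 1 was the lowest for Txnrd1, at 93.5 CPM beside 107, and the highest for Gstt1, at 2.53 beside 0.605, and library 2 was the highest for Prdx6, at 256 beside 192, and for Cbr3, at 94.1 beside 80.7. K5 tumour 2 was the highest for Gsta3, at 4.30 CPM beside 1.28, and Ivl tumour 6 for Gstm3, at 0.559 beside 0.218.

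A further 7 genes are listed because the test of Ivl against K5 and K14 tumours passed for them. Their log2 fold changes were 1.24 for Gclc, 1.98 for Gclm, 0.76 for Gss, 3.47 for Gsta3, 2.06 for Gstm1, 0.89 for Ephx1 and 3.14 for Aldh3a1.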

How the results depend on the processing

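No fold change past the threshold changed direction under the alternatives run. Among those against skin that were not past it, the sign changed under at least 1 alternative for Ephx1, Gstm1, Gstm2, Me1 and Txnrd1 in Ivl, Gpx3, Gpx4, Txnrd1 and Ugdh in K5, and Gclc in K14 tumours. Against skin, the calls of Idh1 in K5 and Me1 in K14 (both lower) were gained with DESeq2's size factors, and fewer genes were called higher. The counts were 27 higher and 1 lower in Ivl, 24 and 8 in K5, and 21 and 8 in K14 tumours. With TMM they had been 28 and 1, 25 and 7, and 24 and 7. Of the 44 genes, the number past the threshold between Ivl and the K5 and K14 tumours was 7, and with each library left out in turn, over the 19 or within the 15 libraries, it ranged from 3 (within the 15, without Ivl tumour 4, Ivl tumour 5 or K14 tumour 4) to 8. It was 9 with DESeq2 (beside 2161 of all genes), 10 with DESeq2 within the 15 and 8 with the set of 4 as a covariate. With a replicate block it was 3, namely Gclm, Gsta3 and Gstm1. Deviations of same-numbered libraries correlated weakly (r from -0.372 to 0.243 over 25 pairs, median 0.0149, 9 of them over 0.1). The median was -0.0375 over 109 other pairs. A pairing by number was thus not established, and so weak a correlation cannot exclude one. For the 74 other genes the 2 calls of this comparison became 4 with DESeq2, 0 within the 15 and 1 with DESeq2 within the 15, and ranged from 0 to 3 with 1 library left out. Between K5 and K14 tumours their count of 0 became 1 with DESeq2 and 4 with DESeq2 within the 15. Except where fewer libraries were fitted, the cause of these changes was not tested. The count or share of all genes stands above for DESeq2 over the 19 libraries and for edgeR over all 15. For the other alternatives in this section, DESeq2's size factors among them, it is not given here, so nothing is read from their counts. With 3 Ivl libraries within the 15, single differences rest on few samples.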
